A study of Mus musculus with 4 samples.

Results

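The 9 genes described here make, load and take back the catecholamines of the adrenal medulla: Th, Ddc, Dbh, Pnmt, Gch1, Cyb561, Slc18a1, Slc18a2 and Slc6a2. They were chosen by name, and every probe set annotated to exactly 1 of them was used, which gave 20 probe sets for 9 of the 18193 genes with a probe set of their own. RNA of whole adrenals from 2-month-old male mice was hybridised, 1 sample per array, with 2 arrays from wild-type mice and 2 from V1a KO mice, which lack the V1a vasopressin receptor. The labels give neither the strain, nor which part of the receptor gene was removed, nor whether the arrays of a genotype hold different animals. The p-values therefore describe the spread among these 4 arrays, part of which may be technical.

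Chromaffin cells of the medulla turn tyrosine into adrenaline in 4 enzyme steps. Tyrosine hydroxylase (Th) makes L-DOPA with tetrahydrobiopterin as cofactor, aromatic L-amino acid decarboxylase (Ddc) makes dopamine, dopamine beta-hydroxylase (Dbh) makes noradrenaline inside the secretory granule, and phenylethanolamine N-methyltransferase (Pnmt) makes adrenaline in the cytosol. The amines are carried into granules by vesicular monoamine transporters, and Pnmt is known to depend on glucocorticoids that reach the medulla from the cortex around it.

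Promoter sequence was looked up for the 9 genes, and its part in their values was not tested. RefSeq's table of GRCm38.p6 held an entry for 5 of them (Th, Ddc, Dbh, Gch1 and Slc18a2), and not for Pnmt, Cyb561, Slc18a1 and Slc6a2. The sequences below are the 250 bases before the annotated start, 5′ to 3′ on the gene's strand, of the 4 genes with a match to the cAMP response element core TGACG, read on both strands, where capitals mark the match. A full element, TGACGTCA, holds the core on both strands.
Th, chr7:142899996-142900245, minus strand: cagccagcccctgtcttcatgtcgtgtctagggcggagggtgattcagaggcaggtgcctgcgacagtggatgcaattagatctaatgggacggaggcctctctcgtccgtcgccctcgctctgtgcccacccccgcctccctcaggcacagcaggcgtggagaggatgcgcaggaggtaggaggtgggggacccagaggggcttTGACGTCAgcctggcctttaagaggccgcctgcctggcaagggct
Dbh, chr2:27165257-27165506, plus strand: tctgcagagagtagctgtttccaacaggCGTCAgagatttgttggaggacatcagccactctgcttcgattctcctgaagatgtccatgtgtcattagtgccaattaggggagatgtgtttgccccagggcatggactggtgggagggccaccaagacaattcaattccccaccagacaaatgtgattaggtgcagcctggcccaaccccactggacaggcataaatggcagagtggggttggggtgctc
Gch1, chr14:47189414-47189663, minus strand: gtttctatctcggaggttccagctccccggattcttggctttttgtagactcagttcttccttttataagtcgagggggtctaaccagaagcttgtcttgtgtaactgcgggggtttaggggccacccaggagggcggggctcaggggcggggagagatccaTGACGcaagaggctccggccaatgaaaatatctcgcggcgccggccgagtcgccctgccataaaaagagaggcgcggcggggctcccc
Slc18a2, chr19:59260628-59260877, plus strand: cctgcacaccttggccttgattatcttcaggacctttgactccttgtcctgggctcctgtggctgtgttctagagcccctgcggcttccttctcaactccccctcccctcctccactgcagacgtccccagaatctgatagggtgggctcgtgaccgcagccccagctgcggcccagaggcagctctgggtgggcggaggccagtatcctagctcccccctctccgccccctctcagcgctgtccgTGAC

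Over the table's 300-base windows, which run from 250 bases before to 50 after each start, 1.79% of 32851 promoters held the full element TGACGTCA and 20.8% held the core TGACG on either strand. Th held the full element from 45 to 38 bases before its start. In Slc18a2 it spans the start, so the 4 capitals at the end of the printed run are its first 4 bases. Dbh had the core 222 bases and Gch1 88 bases before the start, and the 2 windows of Ddc had none. The letters ATTA are a core bound by homeodomain factors such as the chromaffin regulator Phox2a. Either strand counted, they were found 3 times in Dbh, 2 times in Th, 1 time in Slc18a2 and in both windows of Ddc. Gch1 had none, and 58% of all windows hold them. These matches describe the sequence and do not show binding.

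Among the 20 probe sets, 14 passed the filter on dim values (a reading of 4 log2 units or more on 2 arrays) and these covered all 9 genes. The other 6 probe sets, of Ddc, Pnmt, Slc18a1 and Slc6a2, read 2.30 to 2.89, close to the floor of the arrays at 2.30, and were not tested. Where a gene had several, its brightest probe set by 4-array mean represents it. Levels are in log2 expression units, so 1 unit is a 2-fold step, and differences are knockout minus wild type.

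The V1a receptor gene itself, Avpr1a, read 2.31 to 2.60 on all 4 arrays in its 2 probe sets, below the filter, and so does not check the genotype labels. Cortical markers were bright, with Star at 14.12 to 14.24, and so were chromaffin markers, with Chga at 13.04 to 13.72. Wild-type array 1 stood apart, with correlations of 0.919 to 0.924 to the other 3 arrays across tested probe sets, where those 3 correlated at 0.974 to 0.986 with each other. It lay at least 1 log2 unit below all 3 others in 6.64% of tested probe sets and at least 1 above them in 2.26%. Results are therefore given with and without it.

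**Figure D1:**
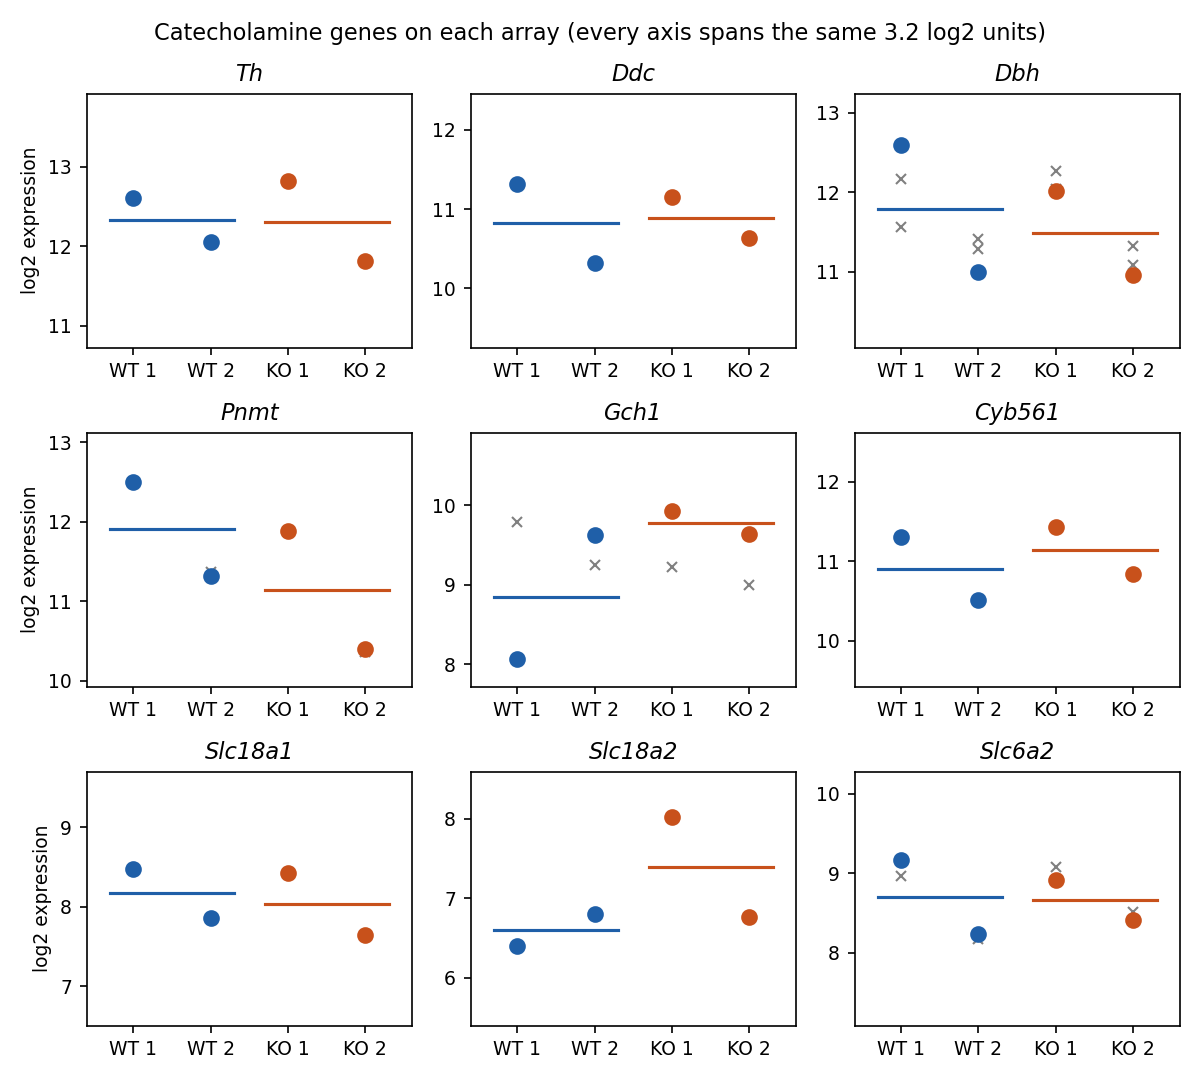
Each panel plots 1 gene's log2 expression on the 4 arrays (wild type blue, knockout orange), with lines at the genotype means. Grey crosses are the gene's other tested probe sets, shifted to the same mean. In 7 of the 9 genes array 1 lies above array 2 in both genotypes.

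No difference between the genotypes passed the test in any of the 9 genes. In limma's test over 17228 probe sets, 0 of the 14 tested probe sets passed an adjusted p of 0.05 (smallest adjusted p 0.794) and 0 had an unadjusted p under 0.05, where 0% and 5.14% of all tested probe sets did. Without wild-type array 1 again 0 of the 9 genes passed. Of the 9 genes 4 read higher and 5 lower in the knockout, with a median of -0.02, beside -0.05 over 10110 tested genes. The median was 0.43 without wild-type array 1, -0.41 without wild-type array 2, -0.29 without knockout array 1 and 0.34 without knockout array 2. Gch1 alone, 1 of the 9 genes, had groups that did not overlap, while 37.7% of all tested genes had groups that did not overlap. In a whole gland, fewer chromaffin cells and less RNA per cell cannot be told apart.

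The main contrast in these genes lay between arrays of the same genotype. Array 1 read higher than array 2 by at least 0.5 log2 units, a 1.41-fold step, in both genotypes in 7 of the 9 genes, against 3.17% of all tested genes. These 7 were Th, Ddc, Dbh, Pnmt, Cyb561, Slc18a1 and Slc6a2. The median difference between the wild-type arrays was 0.80 over the 9 genes and 0.20 over all tested genes, and between the knockout arrays 0.79 and -0.01. The knockout arrays, a comparison that does not use wild-type array 1, differed in the same direction in all 9 genes, by 0.28 to 1.48, where 47.1% of all tested genes read higher on knockout array 1. In 7 of the 9 genes, and in 28.7% of all tested genes, the gap within each genotype was larger than the difference between the genotype means. With 1 array against 1, these gaps have no test, and the labels do not say that arrays with the same number share an animal, litter or day.

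Th, which catalyses the rate-limiting step, read 12.61 and 12.05 on wild-type arrays 1 and 2, and 12.82 and 11.81 on knockout arrays 1 and 2. The knockout arrays thus held both the highest and the lowest value, and the groups overlapped. Means were 12.33 ± 0.40 (SD, n = 2) and 12.31 ± 0.72, a difference of -0.02 (SE 0.45, 95% interval -1.31 to 1.27). Its sign turned without wild-type array 1, to 0.27, and without knockout array 2, to 0.49. Within genotypes the gap was larger, 2.02-fold between the knockout arrays and 1.48-fold between the wild-type arrays.

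Ddc, which makes dopamine from L-DOPA, had wild-type readings of 11.31 and 10.32 and knockout readings of 11.15 and 10.64. Here the wild-type arrays enclosed both knockout arrays. The difference was 0.08 (SE 0.43, 95% interval -1.16 to 1.32), with -0.41 without wild-type array 2, -0.18 without knockout array 1 and 0.57 without wild-type array 1. Its second probe set stayed at 2.30 on every array and gave no reading.

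Dbh was read by 3 tested probe sets, which did not agree on a direction. The brightest had 12.60 and 10.99 in wild type against 12.02 and 10.96 in the knockout, so that the array 1 values were 3.06-fold and 2.07-fold above the array 2 values. Its difference was -0.30 (SE 0.72, 95% interval -2.36 to 1.76), and it turned to 0.50 without wild-type array 1 and to 0.22 without knockout array 2. The second probe set, at 9.30, 8.42, 9.17 and 8.22 in the same order, followed the first, with a difference of -0.17. The third, with the extended suffix _x_at that marks probes shared with other sequences, read 10.82, 10.67, 11.52 and 10.58 and differed by 0.31. All 3 probe sets of Dbh had knockout array 1 above knockout array 2 by 0.94 to 1.05, while the wild-type arrays differed by 1.61, 0.88 and 0.14.

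Pnmt, the enzyme that makes adrenaline, had the lowest difference of the 9 genes and the widest range over arrays. Wild-type readings were 12.50 and 11.32 and knockout readings 11.88 and 10.40, a range of 2.10 log2 units. Knockout array 2 was the lowest array and wild-type array 1 the highest, but knockout array 1 lay 0.56 above wild-type array 2, so the groups overlapped. Means of 11.91 ± 0.84 (SD, n = 2) and 11.14 ± 1.05 gave a difference of -0.77 (SE 0.71, 95% interval -2.80 to 1.26, limma adjusted p = 0.796), a ratio of 0.586. The second bright probe set of Pnmt followed the first closely, at 11.74, 10.60, 11.11 and 9.60, with a difference of -0.81 (SE 0.71). Pnmt kept its sign without each array in turn, from -1.51 without knockout array 1 to -0.03 without knockout array 2, and was -0.18 without wild-type array 1.

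**Figure D2:**
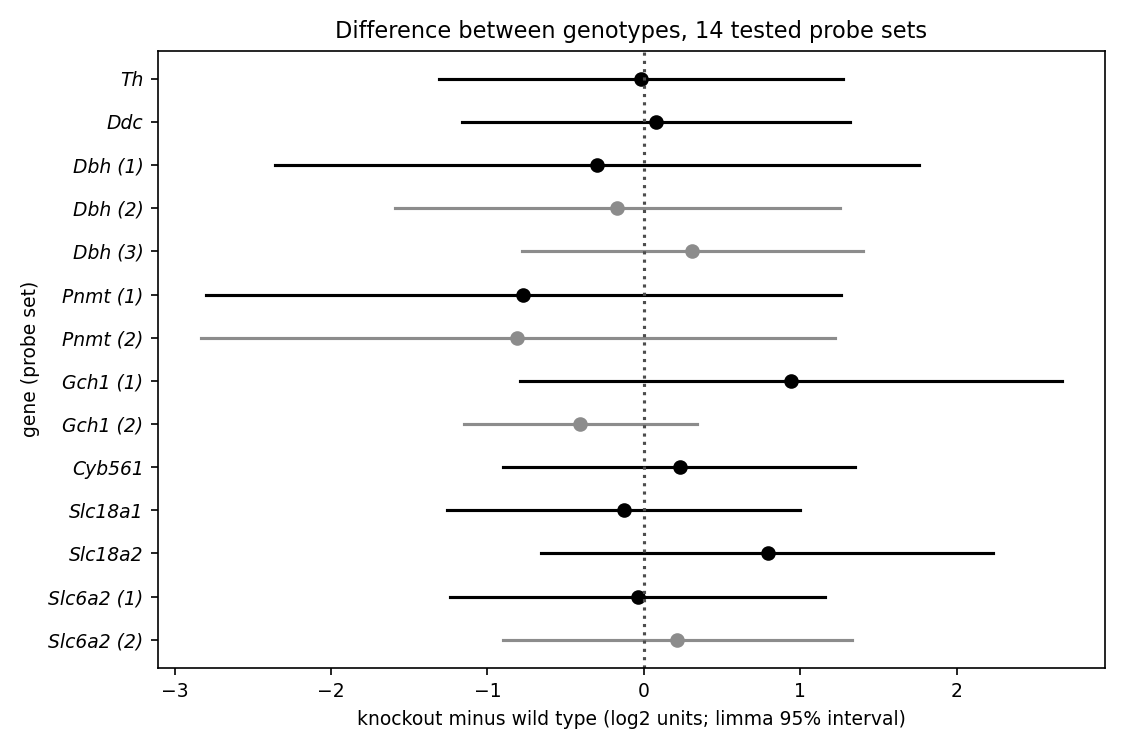
Points are knockout minus wild type in log2 units for the 14 tested probe sets, and lines are limma's 95% intervals. Black marks the probe set that stands for its gene, and grey the other tested ones, numbered within a gene by that order. Every interval includes 0, from Pnmt at -0.77 and -0.81 to Gch1 at 0.94.

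Gch1, GTP cyclohydrolase, which starts the synthesis of the cofactor tetrahydrobiopterin, had 2 tested probe sets with opposite differences. The brighter one, with the suffix _s_at for probes shared by several transcripts, had 8.06 and 9.63 in wild type against 9.93 and 9.64 in the knockout. Its groups did not overlap, yet wild-type array 2 and knockout array 2 were only 0.01 apart, and the difference of 0.94 (SE 0.61, 95% interval -0.79 to 2.67) rested on wild-type array 1. Without that array it was 0.15, and without wild-type array 2 it was 1.73 (limma adjusted p = 0.0808). The plain probe set of Gch1 had wild-type readings of 9.75 and 9.21 and knockout readings of 9.18 and 8.96, which differ by -0.41 (SE 0.26, 95% interval -1.15 to 0.34). There the groups did not overlap either, with the knockout lower, by 0.03 at the nearest. Taken as the mean of both probe sets, the groups of Gch1 overlapped, so no direction can be given for this gene.

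Cyb561, the cytochrome that passes electrons into the granule to renew the ascorbate used by Dbh, gave 11.31 and 10.51 in wild type, against 11.43 and 10.84 in the knockout. Array 1 stood above array 2 by 0.80 (wild type) and 0.59 (knockout), and the groups overlapped. Its difference of 0.23 (SE 0.39, 95% interval -0.90 to 1.35) turned to -0.17 without wild-type array 2 and to -0.07 without knockout array 1, and was 0.63 without wild-type array 1.

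The 2 vesicular monoamine transporters, which fill granules in exchange for protons, had different profiles over the arrays. Slc18a1 (VMAT1, the main form of endocrine cells) gave 8.47 and 7.86 in wild type, against 8.43 and 7.65 in the knockout, with array 1 above array 2 in both genotypes. Its difference was -0.13 (SE 0.40, 95% interval -1.26 to 1.00), and it was 0.18 without wild-type array 1 and 0.27 without knockout array 2. Slc18a2 (VMAT2, the main form of neurons) gave 6.40 and 6.80 in wild type, against 8.02 and 6.76 in the knockout. Knockout array 1 stood 1.22 to 1.61 above the other arrays, and the remaining 3 lay within 0.39 of each other. The difference of Slc18a2 was 0.79 (SE 0.51, 95% interval -0.66 to 2.23) and dropped to 0.16 without knockout array 1 and came to 1.42 without knockout array 2 (SE 0.36, limma adjusted p = 1), while it was 0.59 without wild-type array 1.

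Slc6a2, the noradrenaline transporter of the plasma membrane, was read clearly by 1 of its 4 probe sets, at 9.17 and 8.23 in wild type against 8.91 and 8.41 in the knockout. The knockout arrays lay between the wild-type arrays, with a difference of -0.04 (SE 0.42, 95% interval -1.24 to 1.16). It was 0.43 without wild-type array 1 and 0.21 without knockout array 2. A dimmer probe set of Slc6a2 kept the same step between arrays, at 5.02, 4.23, 5.13 and 4.56, with a difference of 0.21, and the other 2 read 2.44 to 2.89.

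Other markers of chromaffin cells had the same split between arrays. The list of 20 chromaffin markers holds none of the 9 genes and was chosen with earlier results of these data known. Of them, 19 were tested, and 16 read higher on array 1 than on array 2 in both genotypes, against 32.8% of all tested genes. Their mean level was 10.38 and 9.68 on wild-type arrays 1 and 2, and 10.20 and 9.59 on knockout arrays 1 and 2. Over the 12 tested cortex markers it was 11.96, 11.94, 11.84 and 11.81, a far smaller step. That list had a median difference of -0.12, 4 higher and 8 lower, with Nr5a1 at -0.37 and Mrap at -0.45. In 6 of the 12 cortex markers both knockout arrays lay below both wild-type arrays, against 20.5% of all tested genes. The chromaffin list had a median difference of -0.17 between genotypes, 7 higher and 12 lower, with 0 called in limma and 1 at an unadjusted p under 0.05. Penk (proenkephalin) and Eml5 had its smallest p, at -0.88 and 0.86. Eml5 read 5.14 on wild-type array 1 and 6.63 to 6.88 elsewhere.

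**Figure D3:**
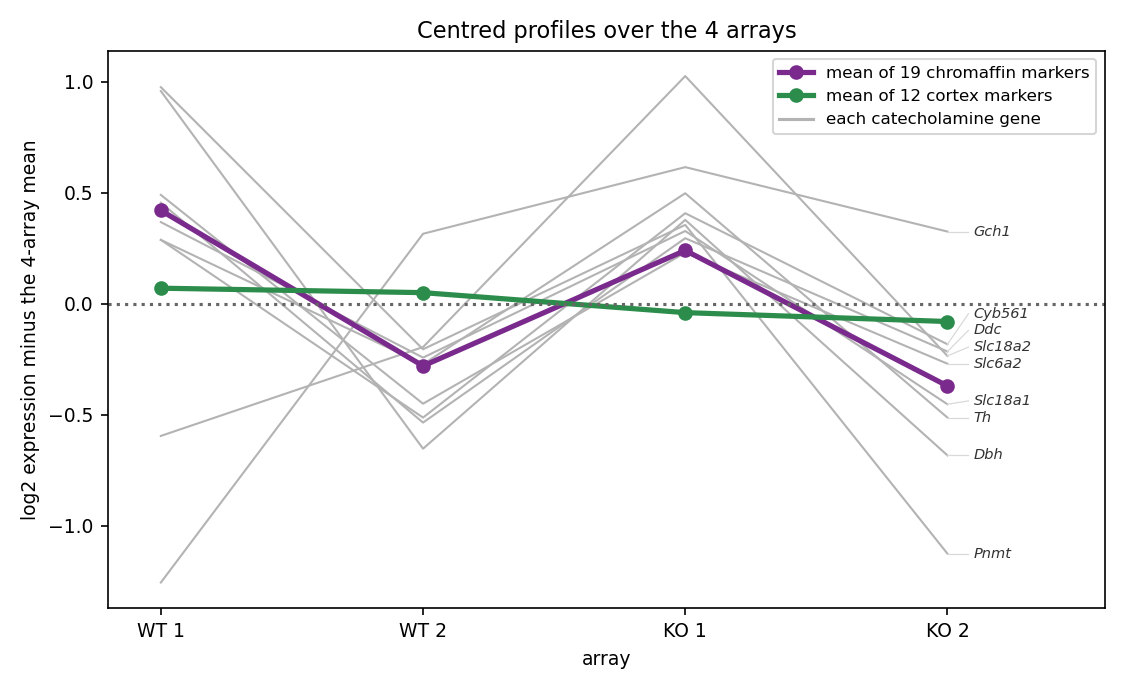
Lines show log2 expression minus the mean of the 4 arrays, for the 9 genes (grey, named at the right) and the means of 19 chromaffin markers (purple) and 12 cortex markers (green). The chromaffin mean runs 0.42, -0.28, 0.24 and -0.37 over the arrays, while the cortex mean stays between -0.08 and 0.07.

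Measured relative to the mean of these chromaffin markers on the same array, 7 of the 9 genes had a narrower range over the arrays and 2 a wider one. The range over the 4 arrays went from 1.01 to 0.40 log2 units in Th, from 0.98 to 0.40 in Ddc, from 0.92 to 0.43 in Cyb561, from 0.82 to 0.18 in Slc18a1 and from 0.94 to 0.27 in Slc6a2. It went from 1.64 to 0.92 in Dbh and from 2.10 to 1.32 in Pnmt, where Pnmt ran 0.56, 0.07 (wild type), 0.12 and -0.76 (knockout) about its own mean. In Gch1 the range grew from 1.87 to 2.37 and in Slc18a2 from 1.61 to 1.79. Without wild-type array 1, a comparison added after seeing the data, the relative range was smaller in Dbh, Pnmt, Gch1 and Slc18a2. The range over the other 3 arrays was then 1.05 as deposited and 0.51 relative to the markers in Dbh. It was 1.48 and 0.88 in Pnmt, 1.26 and 0.71 in Slc18a2 and 0.29 and 0.32 in Gch1. Only Gch1 among the 9, read here by its _s_at probe set alone, did not narrow. Its plain probe set, opposite in sign as deposited, is not given on this scale.

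On this relative scale the differences between genotypes were 0.12 for Th, 0.22 for Ddc, -0.17 for Dbh and -0.64 (SE 0.40) for Pnmt. They were 1.08 for the _s_at probe set of Gch1, 0.36 (SE 0.16) for Cyb561 and 0.01 for Slc18a1. Slc18a2 differed by 0.92 (SE 0.49) and Slc6a2 by 0.10. None of the 9 passed limma (smallest adjusted p 0.794). In that fit only the probe sets of the 9 genes were put on the relative scale. The other probe sets, which share its variance model and adjustment, stayed as deposited. The signs of Th, Slc18a1 and Slc6a2 were opposite to those of the deposited scale. Groups did not overlap in 3 of the 9, Ddc, Cyb561 and Slc18a2, each higher in the knockout. On the deposited scale 17.1% of all tested genes were so, and the share on the relative scale was not computed. The marker mean was lower on each knockout array than on the wild-type array of the same number, so subtracting it raised all 9 differences. The nearest values were 0.03 apart in Ddc, 0.05 in Slc18a2 and 0.30 in Cyb561.

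**Figure D4:**
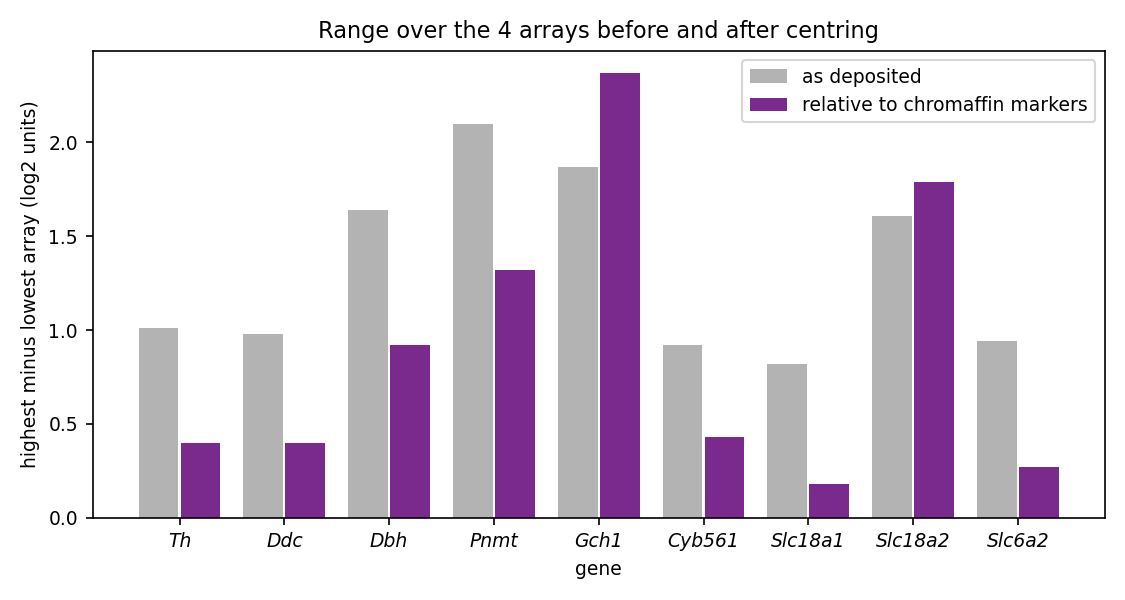
Bars give the highest minus the lowest of the 4 arrays in log2 units, for the probe set that stands for each gene. Grey bars are as deposited, and purple bars are relative to the mean of the chromaffin markers on each array. The bars of Th, Ddc, Cyb561, Slc18a1 and Slc6a2 drop to 0.43 or less, those of Dbh and Pnmt drop to 0.92 and 1.32, and those of Gch1 and Slc18a2 rise.

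Genes with profiles most like that of the 9 were sought among the 10101 other tested genes, by the root mean square difference of profiles centred on their own mean over 4 arrays. The mean profile of the 9 genes ran 0.22, -0.31, 0.46 and -0.37. Nearest to it were 1500009L16Rik (0.0580), Stard5 (0.0604), Mrps12 (0.0689), Bcar3 (0.0725), Hlcs (0.0752), Trpv2 (0.0779), Ralyl (0.0786) and Dio3os (0.0808), where the median gene was at 0.397. Among the members Th was nearest, at 0.0837, and Gch1 farthest, at 0.878. Dbh (0.438), Slc18a2 (0.501) and Pnmt (0.539) also lay farther from the mean profile than the median gene. The genes named here are therefore near to that mean, not to each member.

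Single members had different neighbours. Those of Pnmt were Dusp26 (0.141) and Gal, the neuropeptide galanin (0.156), and Gal gave 12.10 and 10.57 in wild type, against 11.23 and 10.01 in the knockout. Dbh was nearest to Akap6 (0.0876) and Cdkl2 (0.0913), Ddc to Pias3 and Cyp4b1, Cyb561 to Tfdp2 and Haghl, Slc18a1 to Osgin2 and Mrps12, Slc6a2 to Mertk and Slc25a12, and Th to 1500009L16Rik and Jakmip3. The bright probe set of Gch1 was nearest to Tex10 (0.0462) and Eml5 (0.0461), which also read lowest on wild-type array 1, at 8.46 and 5.14. Gal and Eml5 are both on the list of chromaffin markers. Slc18a2 had no such near neighbour, the closest being Dzip1 (0.154) and Rufy3 (0.188). With 4 arrays, such likeness describes these arrays only.

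The other genes that supply cofactors gave no call in limma adjusted over all probe sets, and 1 at an unadjusted p under 0.05. Of 10 listed genes 9 were tested, 4 higher and 5 lower, with a median difference of -0.34. Pts, which makes the pterin intermediate after Gch1, gave 9.73 and 9.53 in wild type, against 8.83 and 8.89 in the knockout. Its groups lay 0.65 apart at the nearest, and the difference was -0.77 (SE 0.17, 95% interval -1.26 to -0.28, limma adjusted p = 0.794). Cyb5r3, a cytochrome b5 reductase, differed by -0.34. In 4 of these 9 genes both knockout arrays were below both wild-type arrays, against 20.5% of all tested genes. Of the 12 cortex markers 6 were so.

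Genes of catecholamine breakdown and of other transport had 0 calls in limma as well, and 0 at an unadjusted p under 0.05. In breakdown 6 of 8 listed genes were tested, 2 higher and 4 lower, with a median of -0.07. Maoa, a monoamine oxidase of the outer mitochondrial membrane, gave 9.48 and 8.85 in wild type, against 9.59 and 9.29 in the knockout (difference 0.28), and Comtd1 differed by -0.56. In other transport 5 of 9 were tested, with a median of 0.09. Slc7a8 and Slc7a5, carriers of large neutral amino acids such as tyrosine, differed by 0.88 and 0.72. The dopamine transporter Slc6a3 stayed at 2.30 on every array, while the serotonin transporter Slc6a4 read 8.82 to 9.47. Of the adrenoceptors, Adra1b and Adra2c were analysed here and neither passed the filter.

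Regulators and the machinery of release also held 0 calls in limma, and 0 at an unadjusted p under 0.05. Over 11 tested regulators of chromaffin cells the median was 0.06, 6 higher and 5 lower. Insm1, a zinc finger factor of neuroendocrine cells, gave 5.42 and 7.76 in wild type, against 8.84 and 7.86 in the knockout, with the low value again on wild-type array 1 (difference 1.76, SE 0.94), and Isl1 differed by 0.37. Phox2a, a homeodomain factor that acts on Th and Dbh, read 9.28, 8.15, 8.97 and 8.04 on wild-type arrays 1 and 2 and knockout arrays 1 and 2. Egr1, an immediate-early factor known to act on the Pnmt promoter, gave 12.38 and 8.65 in wild type, against 10.04 and 10.77 in the knockout. Its part in the values of Pnmt was not tested. Nr3c1, the glucocorticoid receptor, read 7.01 to 7.39. Over 12 tested genes of nicotinic input and exocytosis the median was -0.10, with Chrna7 at -0.51 and Cadps at 1.02. Cadps read 5.59 on wild-type array 1 and 6.88 to 7.49 elsewhere. In this list 9 of the 12 read higher on array 1 than on array 2 in both genotypes, against 32.8% of all tested genes. Snap25, among these 9, is also on the list of chromaffin markers.

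Markers of other cells in or around the gland also differed between arrays. Adipocyte markers, 7 tested of 8 analysed, had mean levels of 8.49, 7.25, 5.67 and 7.77 on wild-type arrays 1 and 2 and knockout arrays 1 and 2. Knockout array 1, the higher knockout array for all 9 genes, was the lowest here. Wild-type array 1, the higher wild-type array for 7 of the 9 genes, had the highest mean here. Only Ucp1, Cidea and Pparg read highest on it. Adipoq, Fabp4, Cidec and Retn read highest on knockout array 2, Adipoq at 10.16 against 9.60 on wild-type array 1. Ucp1 read 10.05, 7.24, 2.80 and 5.91 and Cidea 9.78, 6.78, 3.37 and 6.06, while Lep stayed at 2.30. The list had a median difference of -0.26, 2 higher and 5 lower. In Ucp1 and Cidea both knockout arrays lay below both wild-type arrays, as in 20.5% of all tested genes. Their differences of -4.29 (SE 1.54) and -3.57 (SE 1.48) did not pass limma. The groups of the other 5 overlapped, among them Adipoq at -0.26, Fabp4 at -0.03 and Retn at 0.76. Macrophage markers, 9 of 9 tested, had means of 7.64, 7.99, 8.09 and 8.55 and a median difference of 0.26, 6 higher and 3 lower. Ctss differed by 0.83, Cd68 by 1.11 and Csf1r by -0.22, with groups that did not overlap. In this list 3 markers were higher and 2 lower in the knockout without overlap, where 37.7% of all tested genes had groups that did not overlap. C1qb was lowest on wild-type array 1, at 6.31, with 9.97 to 10.54 elsewhere. Endothelial markers, 8 of 8 tested, had means of 8.27, 7.62, 8.01 and 7.92, with Kdr at -0.36 and Tek at 0.20.

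Nerve and glial markers were dim. Schwann cell markers, 5 tested of 8 analysed, had means of 4.90, 4.62, 4.51 and 4.51, with Foxd3 at 2.30 on every array and a median difference of -0.49, 2 higher and 3 lower. Fabp7 differed by -0.61 and Erbb3 by 0.62, with groups that did not overlap in either. Sox10 read 4.15, 4.16, 3.65 and 3.05, so it passed the filter through the wild-type arrays alone, and its difference is given no test. The means, the median and the 3 lower of this list include Sox10, so they show no direction. Of the others, Fabp7 and Ngfr (-0.49) read lower in the knockout and Erbb3 and Cdh19 (0.04) higher. Of sympathetic neuron markers 3 of 8 passed the filter, Nefl, Nefh and Elavl4, with means of 4.73, 4.87, 5.45 and 5.08. Nefl differed by 0.40 and Elavl4 by 0.61, where Elavl4 read 4.05 on wild-type array 1 and 5.41 to 5.62 elsewhere. Peripherin (Prph), which marks such neurons, read 2.57 to 2.76. The part of these cells in the values of the 9 genes was not tested.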

How the data were processed

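The values are log2 expression per probe set of the Mouse Genome 430 2.0 array, which the authors computed from CEL files, per the labels' protocols with gcRMA (Bioconductor 3.14). GCRMA corrects the background by probe sequence and normalizes between arrays, so dim probe sets gather at a floor. The log2 scale was read from the deposited values, and gcRMA's version is not given in the sources. RNA passed at an integrity number of 8.0 to 9.0.

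Of 45037 probe sets without the 64 controls, 34945 had 1 gene in GEO's platform annotation, 932 several and 9160 none, and 34741 matched GRCm38.p6 by gene ID with 0 symbols changed. Groups came from the sample titles. The 17228 probe sets at 4 log2 units or more on at least 2 arrays were fitted in limma 3.58.1 (R 4.3.3, lmFit and eBayes without trend, genotype only, 2 residual and 1.73 prior degrees of freedom), with Benjamini-Hochberg adjustment over all of them. The number of arrays limits the precision, and an exact permutation test of 2 against 2 cannot go below p = 0.333. Scripts were tested on simulated data.

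The 9 genes, lists and alternatives were chosen with earlier results of these data known. From each list the 2 genes with the smallest p were named, and genes nearest in profile. Avpr1a, Star, Chga, Slc6a3, Slc6a4, Adra1b, Adra2c, Phox2a, Egr1, Nr3c1, Lep, Adipoq, Fabp4, Cidec, Pparg, Retn, Csf1r, C1qb, Erbb3, Foxd3, Nefh and Prph were chosen after their values were seen. Alternatives were the filter, 3 scalings, the variance model, the replicate number as a block, the choice of probe set and leaving out each array. Ranges without wild-type array 1 and the knockout arrays alone were added after seeing the data.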

Additional observations from a re-analysis of the deposited data

How the results depend on the processing

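None of the 9 genes gained a call under any alternative run, the smallest limma adjusted p being 0.0808 (Gch1 without wild-type array 2). Of 81 values under alternatives that kept all arrays, 74 kept their direction and 7 reversed, and of 36 values without 1 array, 24 kept it and 12 reversed. Th turned to 0.04 with quantile normalization, 0.01 with arrays centred on their median and 0.12 relative to chromaffin markers. Relative to those markers Slc18a1 turned to 0.01 and Slc6a2 to 0.10. Slc6a2 was 0.09 as the mean of its probe sets, and Gch1 was -0.41 with plain probe sets only. Leaving out each array in turn gave ranges of -0.52 to 0.49 for Th, -0.41 to 0.57 for Ddc, -1.11 to 0.50 for Dbh, -0.17 to 0.63 for Cyb561, -0.52 to 0.27 for Slc18a1 and -0.51 to 0.43 for Slc6a2, and, with no change of sign, -1.51 to -0.03 for Pnmt, 0.15 to 1.73 for Gch1 and 0.16 to 1.42 for Slc18a2. A genotype left with 1 array borrows its spread from the other. The count of genes whose groups do not overlap, 1, was 0 with median centring, 3 relative to chromaffin markers and 0 with the mean of probe sets. On the deposited scale 37.7% of all tested genes had such groups. That share was not computed at the other settings, so the changes in count give no result about the 9 genes. Over all probe sets, calls at an adjusted p under 0.05 in limma went from 0 to 2 under each of 4 settings, namely a filter at 6, plain probe sets only, median centring and quantile normalization. Calls by the second rule, 2-fold or more at an unadjusted p below 0.01, went from 144 to 78 without a filter, and from 25 to 1497 leaving out each array in turn. The cause was not tested. With the replicate number as a block, Pnmt was -0.77 (SE 0.23, limma adjusted p = 0.797) and the count of calls over all probe sets 126. Differences between arrays 1 and 2 in the 2 genotypes correlated at 0.169 across genes, and the samples share only a number. The 6 probe sets near the floor of 2.30 could not show a difference at any setting that kept the filter.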
